A study of Homo sapiens with 4 samples.

Results

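The introns of FAM13A between positions 89840000 and 89909999 of chromosome 4 (hg19) hold the peak of the locus's association with chronic obstructive pulmonary disease (COPD), and the lesser known variants of this stretch are described here. Members were all variants of the reporter table with a position in that range, except 8 better known variants, of which 7 lay in the range. This left 89 of 606 variants, from 89847655 to 89909917, and 1068 of 7270 oligonucleotides with 32240 of 218526 tags. Each variant was carried as 2 alleles, in 3 windows (L, C, R) and 2 orientations (F, RC), which made 534 constructs (1 variant in 1 window and 1 orientation) and 1068 elements (1 allele of a construct). The sources used here do not give what the window letters stand for or how long the oligonucleotides are. Of the 89 variants 66 were transitions and 23 transversions, neighbours lay a median of 378 bases apart, and oligonucleotides of close variants may share sequence. Positions are those of the deposited table and were read as hg19, and no annotation of that build was used here to place each variant in an exon or intron.

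A massively parallel reporter assay measures many short genomic sequences at once: each is cloned beside a reporter gene that carries a short tag, and the number of tags in RNA relative to the plasmid pool reports how strongly the sequence drives transcription. FAM13A is expressed in airway and alveolar epithelium and is among the genes most often tied to lung function and COPD in genome-wide studies. Since most associated variants there do not change the protein, an allele that changes reporter output is a way to look for regulatory variants. The study used BEAS-2B, an established line of human bronchial epithelial cells, transfected by nucleofection and harvested after 24 hours. The 4 groups were the input and the RNA of a plasmid pool with a minimal promoter (minP, weak) and the input and the RNA of a pool with the simian virus 40 promoter (SV40, strong). Each group held 1 library with no replicate transfection, so errors below are standard errors (SE) over tags, and p-values measure the spread between tags within 1 transfection and not between transfections. Totals ran from 11086933 reads in minP RNA to 29398765 in minP input, and the members' median tag had 84 and 77 input reads and 24 and 52 RNA reads with minP and SV40.

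The oligonucleotide sequences themselves were not in the files used here, so the tags that carry the allelic results are shown: 11 bases each, as the table writes them, all in lower case because no part of a tag is marked. For each allele these are the tags with the lowest, the median and the highest minP ratio of the construct with the smallest SE, rs72665835 in window R, orientation RC.
A allele, lowest: tcaatccgaat
A allele, median: gtgcatcctaa
A allele, highest: cggccattcct
G allele, lowest: acggtctcacg
G allele, median: cagttgcgaag
G allele, highest: gctcgttaatg
For the other called variant, rs1964516 in window L, orientation F, the same tags were as follows.
C allele, lowest: ctggtgatagg
C allele, median: atcgcagcctg
C allele, highest: tactagcgacc
T allele, lowest: agcttgctgac
T allele, median: aaatgcctgtt
T allele, highest: cgtaggaggct
The median A tag of rs72665835 had 1289 input and 259 RNA reads with minP, and the median G tag 624 and 250. With SV40 the A tag had 896 input and 549 RNA reads and the G tag 525 and 599. The G tag gave a similar or higher RNA count from fewer plasmid reads in both libraries. Both tags were picked by their minP ratio in a construct already called, so they are an illustration and no separate support for the call. The lowest A tag had 11 input reads and 0 RNA reads with minP, just above the minimum of 10 input reads, so its ratio is set by the added count of 1. The median C tag of rs1964516 had 358 input and 140 RNA reads with minP and the median T tag 426 and 261.

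Allelic differences were found at 2 of the 89 variants, and each was near 2-fold. Since the table names no reference allele, alleles are taken in alphabetical order, and a difference is the mean log2 tag ratio of the later one less that of the earlier one. With minP, 3 of 515 tested constructs passed an adjusted p of 0.05 (two-sided permutation of allele names over tags, Benjamini-Hochberg over all constructs of the library), against 1.47% of all 3469 constructs of the series. With SV40, 2 of 514 passed against 1.02%, and 2 constructs passed in both libraries with the same allele higher, against 0.878%. The members' shares were 0.583%, 0.389% and 0.39%. In all of these the later allele was higher, against a background of 0.836% with minP and 0.611% with SV40 for that direction. Before adjustment, 28 constructs had a p under 0.05 with minP (5.44%, against 7.47% of all constructs) and 30 with SV40 (5.84%, against 7.5%). The median size of the difference over all members tested was 0.30 with minP and 0.36 with SV40, and over all constructs of the series 0.33 and 0.37. The members' median SE was 0.49 and 0.53, larger than the median difference in each library. A difference of that size thus cannot be told from the spread between tags, and the part of depth was not tested. The libraries carry the same tags, so a call in both is not an independent repeat.

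For rs72665835 at 89855138, an A/G variant, constructs with G gave more reporter RNA per plasmid than those with A in orientation RC. In window R with minP, the 31 A tags ran from -1.40 through a median of -0.12 to 0.73, and the 31 G tags from -0.48 through 0.87 to 2.40, as log2 ratios relative to the average tag of the library. Here 29 of the 31 G tags lay above the A median and 18 above the highest A tag, while 0 A tags lay above the G median, so the ranges overlapped only in part. G minus A was 1.06 ± 0.14 (2.09-fold, permutation test, adjusted p = 0.00128). With SV40 the 30 A tags ran from -1.27 through 0.22 to 1.76 and the 31 G tags from 0.15 through 1.01 to 2.51. G minus A was 0.86 ± 0.16 (1.81-fold, permutation test, adjusted p = 0.00202), and 30 of 31 G tags lay above the A median. The construct had 29400 input reads for A and 22929 for G with minP, and input counts alone gave G minus A of -0.12 ± 0.27 with minP and -0.099 ± 0.20 with SV40. RNA counts alone gave 0.94 ± 0.34 and 0.76 ± 0.26, in the same direction and short of the threshold (permutation tests, adjusted p = 0.178 and 0.193).

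In window L of orientation RC, where both alleles lay below the average tag with minP, the A tags had a median of -2.08 and the G tags one of -0.48. G minus A was 1.29 ± 0.24 with minP (2.45-fold, permutation test, adjusted p = 0.00128) and 0.88 ± 0.30 with SV40, short of the threshold (permutation test, adjusted p = 0.241). In RNA counts alone this construct stood at 1.003 ± 0.35 with minP (permutation test, adjusted p = 0.223) and at 1.41 ± 0.38 with SV40 (permutation test, adjusted p = 0.0353). Input counts alone gave -0.29 ± 0.23 with minP and 0.53 ± 0.23 with SV40, in the latter along with the RNA counts. The SV40 input held 4641 reads for A and 7150 for G. In window C of that orientation G minus A was 0.63 ± 0.46 and 0.30 ± 0.43. Orientation F gave 0.45 ± 0.54 and 0.09 ± 0.63 in window C and -0.10 ± 0.62 and 0.14 ± 0.72 in window R, and its window L had too few A tags. The F constructs had far fewer reads, with 37.4 and 59.0 minP input reads per tag for A and G in window R against 948 and 740 in RC, and whether the orientations differ was not tested. The level also moved with the window: the G allele lay at 0.84 ± 0.10 in window R and at -0.66 ± 0.17 in window L of orientation RC with minP.

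For rs1964516 at 89875909, a C/T variant, the T allele gave more RNA per plasmid than C in window L, orientation F. With minP the 29 C tags ran from -1.81 through a median of 0.84 to 1.98, and the 32 T tags from 0.17 through 1.49 to 2.80. Of the T tags 30 lay above the C median and 8 above the highest C tag. T minus C was 1.01 ± 0.22 (2.01-fold, permutation test, adjusted p = 0.00325). With SV40 it was 0.90 ± 0.26 (1.87-fold, permutation test, adjusted p = 0.0344), with 28 of 32 T tags above the C median. A rank statistic ended the SV40 call (permutation test, adjusted p = 0.0531), and RNA counts alone ended both, at 1.13 ± 0.37 with minP and 1.02 ± 0.32 with SV40 (permutation tests, adjusted p = 0.0684 and 0.0501). Input counts alone stood at 0.13 ± 0.22 and 0.12 ± 0.16. None of the other 5 constructs of rs1964516 passed: with minP they ran from -0.40 ± 0.44 in window R, orientation RC, to 0.26 ± 0.51 in window R, orientation F. The T allele of the called construct lay above the average tag, at 1.58 ± 0.11 with minP and 1.64 ± 0.13 with SV40.

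The 3 called constructs were among the deepest and most precise of the members. By input reads per tag with minP, rs72665835 in window R ranked 1 of 515, in window L 20, and rs1964516 ranked 35, and by SE they ranked 1, 12 and 9. When the tested constructs were split in 3 sets by input reads per tag, the median SE with minP fell from 0.61 in the shallowest set (median 44.6 reads) to 0.35 in the deepest (245 reads), and the calls were 0, 0 and 3. The median size of the difference went the same way, from 0.40 to 0.22.

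The largest differences with an unadjusted p under 0.05 were all short of the threshold after adjustment. Each value is that of 1 construct, and other constructs of the same variant could go the other way. For rs7660385 in window R, orientation RC, C lay at -1.60 and T at -0.27 with SV40. For rs9307054 in window R, orientation F, A lay at -0.32 and G at 0.44 with minP. With minP and a higher later allele these were rs2464526 at 89879663 (G over A in window C, orientation RC, 1.81 ± 0.61, permutation test, adjusted p = 0.198), rs1903006 at 89891874 (1.51 ± 0.52), rs2904256 at 89861309 (1.48 ± 0.50), rs1458562 at 89853598 (1.39 ± 0.52) and rs2869966 at 89869078 (1.39 ± 0.65). With a higher earlier allele they were rs56162738 at 89875694 (-1.53 ± 0.68), rs7691363 at 89907604 (-1.53 ± 0.53), rs9307054 at 89899483 (-1.52 ± 0.58), rs2609284 at 89848354 (-1.44 ± 0.54) and rs78681184 at 89906598 (-1.17 ± 0.41). With SV40 the same 2 variants rs7691363 (-1.63 ± 0.58) and rs9307054 (-1.61 ± 0.71) led the negative side in the same constructs, and rs1903006 (1.42 ± 0.62) was again on the positive side. The others with SV40 were rs6815703 (1.99 ± 0.72), rs34749134 (1.84 ± 0.65), rs9307055 (1.70 ± 0.75) and rs2704587 (1.52 ± 0.64), and, with the earlier allele higher, rs7660385 (-1.49 ± 0.55), rs2869966 in window R, orientation F (-1.39 ± 0.65), and rs2704576 (-1.35 ± 0.52). In the minP list, rs1903006, rs2904256 and rs2869966 were also in window C, orientation RC. There rs7691363 and rs9307054 were in window C, orientation F, rs56162738 and rs2609284 in window L, orientation RC, and rs78681184 in window L, orientation F. In the SV40 list, rs6815703, rs34749134 and rs2704576 were in window L, orientation RC, and rs2704587 in window L, orientation F. Its values for rs1903006 and rs7660385 were from window C and for rs9307055 from window R, all in orientation RC. For rs56162738 the minP value rested on 13 and 19 tags, and SV40 gave -0.11 ± 0.75. The alleles of rs1458562 in window C, orientation F, were closer with SV40, with C at -0.96 ± 0.51 and T at -0.59 ± 0.48. Those of rs2869966 in window R, orientation F, were closer with minP, with C at -0.73 ± 0.39 and T at -1.16 ± 0.39. For rs78681184, counts summed over tags in place of the mean of tag ratios passed with minP (-1.51, permutation test, adjusted p = 0.0458).

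Along the stretch, most elements lay within 2-fold of the average tag of their library, and the shares past it were near or below those of the series. Activity is the mean log2 tag ratio of an element minus the mean over all tags, with at least 10 tags per element, which 1038 elements met with minP and 1035 with SV40. The members' median activity was 0.06 with minP and 0.05 with SV40, against 0.10 in the whole table for each. At least 2-fold above the average tag were 83 elements with minP (8.0%, against 9.28% of all 7006 elements) and 117 with SV40 (11.3%, against 12.9%). At least 2-fold below were 135 with minP (13.0%, against 15.4%) and 194 with SV40 (18.7%, against 18.8%). The median tag lies 0.23 above the mean tag with minP and 0.35 with SV40. Taking the median tag as reference lowers every element of the series by that amount. The split was then 42 above and 180 below with minP and 50 and 284 with SV40. Counts summed over tags left 58 above with SV40, and leaving out tags with 0 RNA reads left 76 below with minP and 121 with SV40. Shares over all elements are given for the main setting only, so these splits cannot be read as particular to the members. At least 4-fold above were 14 elements with minP (1.35%, against 1.43%) and 22 with SV40 (2.13%, against 2.13%).

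In 7 bins of 10 kb, the median activity with minP was highest from 89870000 to 89879999, at 0.35. There 18 of 108 elements (16.7%) were at least 2-fold above the average tag and 12 (11.1%) at least 2-fold below. Over all elements of the series these shares were 9.28% and 15.4%. With SV40 the same bin had 17 of 107 above (15.9%, against 12.9% of all elements) and 14 below (13.1%, against 18.8%). The elements above with minP included all of rs6532091 in orientation F (1.18 to 2.86). They also included those of rs34749134 in windows C and R of orientation F (1.20 to 1.67). The median was lowest from 89890000 to 89899999, at -0.07, with 25 of 254 above (9.84%) and 39 below (15.4%). The interquartile ranges of these bins, -0.26 to 0.70 and -0.66 to 0.49, overlapped widely. With SV40 the highest median was 0.28, from 89880000 to 89889999, and the lowest -0.12, from 89860000 to 89869999 and from 89890000 to 89899999. The first bin held 3 variants, with 1 of 36 elements above with minP and 0 of 36 with SV40, against 9.28% and 12.9% of all elements.

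An active stretch lay near the upper end, where 3 variants within 103 bases each had constructs well above the average tag in orientation F. These were rs7697900 at 89908624, rs7697921 at 89908661 and rs11737016 at 89908727. In window R the C and T alleles of rs7697900 lay at 2.45 ± 0.18 and 1.88 with minP and at 2.99 ± 0.23 and 2.40 with SV40. The same window of rs7697921 gave 2.34 ± 0.28 for C and 1.79 for G with minP and 3.15 ± 0.36 and 2.29 with SV40. For rs11737016 it was window L that was high, with 2.44 ± 0.30 for C and 3.03 ± 0.25 for T with minP and 3.01 ± 0.40 and 3.58 ± 0.23 with SV40, up to 11.9-fold above the average tag.

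Within this stretch the level changed with the window in opposite order. For rs7697900 in orientation F with minP, the C allele went from 0.30 in window L through 0.65 in window C to 2.45 in window R. For rs11737016 the T allele went from 3.03 in window L through 1.09 in window C to 0.04 in window R. For rs7697921, which lies between them, all 3 windows of orientation F were above the average tag, from 0.85 to 2.34. In orientation RC the active windows were not high: window R gave -1.34 and -0.52 for rs7697900, and window L -1.25 and -1.34 for rs11737016. The next variant below, rs7697075, lies 316 bases from rs7697900, and with minP its F elements ran from -1.32 to 0.82.

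The highest single elements were those of rs10030965 at 89901415 in window R, orientation RC. The A allele lay at 3.89 ± 0.41 with minP and 4.26 ± 0.24 with SV40, and C at 3.96 ± 0.25 and 3.23 ± 0.62, or 14.8, 19.2, 15.5 and 9.37-fold above the average tag. They rested on 13 to 18 tags with 22.5 to 35.2 input reads per tag, while this variant's remaining elements had 130 to 379 in the minP input. Window C of the same orientation was also above the average, at 1.11 ± 0.15 and 0.89 ± 0.23 with minP, and window R of orientation F was below it, at -1.15 ± 0.29 and -0.997 ± 0.17. Of the neighbours, rs10028596, 141 bases away, lay at -0.68 ± 0.47 and -1.29 ± 0.47 in that construct with minP, and rs10006121, 300 bases away, at 1.02 ± 0.36 and 1.10 ± 0.29.

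For rs6532091 at 89877367, all 3 windows of orientation F were high with minP, from 1.18 ± 0.61 for C in window R to 2.86 ± 0.37 for T in window L. With SV40 windows L and C gave 2.05 to 3.45, while window R gave -0.45 ± 0.89 for C over 11 tags and too few tags for T. In orientation RC the same variant lay at 0.38 and 0.65 in window L with minP, at -1.17 and -1.28 in window C and at -1.81 and -2.19 in window R. Input per tag with minP was 18.1 to 41.4 reads for the F elements and 206 to 375 for the RC elements. Other constructs with both alleles at least 4-fold above in the same library, named after their values were seen, were rs28540701 in window C, orientation F (2.13 ± 0.21 and 2.15 ± 0.29 with minP, 2.67 ± 0.20 and 2.93 ± 0.22 with SV40) and rs1921679 in that window and orientation (2.01 ± 0.39 and 1.82 ± 0.49, then 2.98 ± 0.38 and 2.80 ± 0.69). These rs1921679 elements rested on 17 to 24 tags. Their input per tag was 38.6 and 27.7 reads with minP and 31.4 and 19.7 with SV40. All passing tags of that variant averaged 321 and 196. Among variants taken as a whole, rs2085601 at 89895944 averaged 0.82 ± 0.89 (SD over 12 elements, mean of both libraries) with 11 of 12 elements above the average tag, led by window R of orientation RC (1.88 ± 0.34 and 2.12 ± 0.41 with minP). For rs11722033 at 89906750 the mean was 0.72 ± 0.91, with all 6 elements of orientation RC between 0.51 and 1.75 with minP and those of orientation F between -0.46 and 0.75. The others of the 5 highest means were rs10030965 (0.87 ± 1.53), rs7697921 (0.80 ± 0.98) and rs11737182 (0.64 ± 0.62).

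At the low end, 4 variants had no element above the average tag in the mean of both libraries. These were rs2704604 at 89851508 (-1.90 ± 0.28, SD over 6 elements), rs2125409 at 89850542 (-1.84 ± 0.47, 7 elements), rs1246642 at 89864446 (-1.53 ± 0.54, 7 elements) and rs2904259 at 89885714 (-1.02 ± 0.61, 10 elements). None of these variants had all its elements measured, which makes the rule easier to meet. The share over all variants of the series was not taken. For rs2904259 the C allele in window R, orientation F, lay at 1.42 ± 0.55 over 19 tags with minP but had too few tags with SV40 to enter that mean. The fifth lowest was rs9307058 at 89900729, at -0.93 ± 1.25. Fewer of the tags of these 5 variants passed the minimum with minP, 45.8% to 76.3% against 90.1% over all members. The passing tags of rs1246642, rs2704604 and rs2125409 averaged 31.2, 56.2 and 79.4 minP input reads, while those of rs2904259 and rs9307058, at 148 and 142, were near the members' mean of 148. With a minimum of 50 input reads the minP means went from -1.69 to -2.47 for rs2704604, from -1.02 to -1.57 for rs1246642 and from -0.62 to -1.73 for rs2904259. With a minimum of 1 the minP mean of rs1246642 was -0.42 and the SV40 mean of rs2904259 went from -1.21 to -0.47, so the sizes depended on the minimum, and all 5 means stayed below 0 with both minimums in both libraries.

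For rs2704604 both alleles were low in every construct that could be measured, from -2.56 ± 0.31 to -0.87 ± 0.42 with minP and from -2.63 ± 0.25 to -1.63 ± 0.26 with SV40. In window L, orientation F, 16 of 24 A tags and 14 of 21 G tags had 0 RNA reads with minP, so those values depend on the added count. For rs2125409 in window C, orientation RC, the SV40 values were the lowest of all members, at -3.45 ± 0.21 for T and -3.11 ± 0.26 for G, against -1.45 ± 0.24 and -1.28 ± 0.30 with minP. That construct's input averaged 122 and 138 reads per tag with SV40 and 37.5 and 58.9 with minP, so the lower ratio stood beside the larger input. In window R of that orientation the order of the libraries was the other way, with G at -2.44 ± 0.24 over 256 input reads per tag with minP and at -1.39 ± 0.26 over 72.0 with SV40. The part of input depth in these differences was not tested. For rs1246642 the lowest SV40 elements were C in window R (-3.02 ± 0.32) and T in window C (-2.87 ± 0.24), both in orientation RC, and 15 of 23 tags of the latter had 0 RNA reads, so its value depends on the added count. With minP the lowest were rs2704577 at 89894446 in window L, orientation RC (-2.69 ± 0.27 for T and -2.54 ± 0.25 for C), rs7660385 at 89860819 in window L, orientation F (-2.60 ± 0.27 for C and -2.53 ± 0.23 for T), and the G allele of rs2704604 in window C. The fifth lowest with SV40 was the G allele of rs2609275 at 89894626 in window R, orientation F (-2.75 ± 0.44, 17 tags). Of those tags 12 had 0 RNA reads, so this value also depends on the added count. The low SV40 elements of rs2125409 and rs2609275 and the low minP elements of rs2704577 were all nearer the average in the other library, such as -1.27 ± 0.31 and -0.84 ± 0.39 for rs2704577 with SV40, where its input was 28.2 and 23.5 reads per tag against 134 and 99.7 with minP. So were the low elements of rs7660385, rs2704604 and rs1246642 that had values in both. All of these were picked as the lowest of their library, so this cannot be read as particular to them.

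Activity was shared by the alleles of a construct and much less by its windows or orientations. Across the 515 constructs with both alleles measured with minP, the activity of the earlier and the later allele correlated at r = 0.82 and had the same sign in 420, and with SV40 at r = 0.84 over 514 constructs. The alleles differ by 1 base and carry separate tags. Between orientations of the same allele and window, r was -0.020 over 510 pairs with minP and 0.083 over 505 with SV40, with the same sign in 56.5% and 58.0%. Between windows L and C of the same allele and orientation r was 0.37 with minP, between C and R 0.24, and between L and R 0.17. With SV40 these were 0.34, 0.23 and 0.14. Between the promoters, whose libraries share tags and sequences, r was 0.90 over 1033 elements. These values describe elements, which are not independent samples.

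Variants a few bases apart had the same sign of activity in little more than an even split of construct pairs of the same window and orientation. The members held 12 pairs of variants 4 to 49 bases apart, from 16 variants. Their 72 construct pairs had the same sign, as the mean of both alleles and libraries, in 39. The share over all close pairs of the series was not taken. The widest gap was in a cluster of 4 variants within 28 bases, rs7660385, rs7682317 at 89860830, rs2464522 at 89860843 and rs2464523 at 89860847. In window L, orientation F, with minP, rs7660385 lay at -2.60 and -2.53 and rs7682317, 11 bases away, at 0.73 and 0.94, a gap of 3.35 in the mean of both libraries. In that construct rs2464522 lay at 0.25 and 0.49 and rs2464523 at -0.30 and -0.85. The alleles of rs7660385 thus differed by far less than it differed from its neighbour. In window R of the same orientation the 4 variants were closer, at 0.11 and 0.60, 0.83 and -0.03, 0.88 and 0.57, and 0.33 and 0.06. The pair rs7682317 and rs2464522, 13 bases apart, had the same sign in 5 of 6 constructs with a median gap of 0.40. The pair rs7697900 and rs7697921 in the active stretch, 37 bases apart, also agreed in sign in 5 of 6. The pair rs78681184 and rs72665855 at 89906647, 49 bases apart, had the same sign in 2 of 6 constructs with a median gap of 1.20. Both were low in window C, orientation F, with minP, at -1.20 and -1.91 for rs78681184 and -1.42 and -2.03 for rs72665855. In window L of that orientation rs78681184 lay at -0.11 and -1.28 and rs72665855 at 0.80 and 1.01. The pair rs2704576 and rs2609275, 24 bases apart, had the same sign in 4 of 6, with a median gap of 0.29 and the widest, 1.90, in window R, orientation F.

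The members nearest to the known variants rs2013701 and rs7671167 were rs7671261 at 89883818 and rs2904259. rs7671261 lies 161 bases below rs7671167, and its 12 elements averaged -0.12, from -2.29 to 1.11. Its lowest construct was window R of orientation RC, with -1.71 ± 0.27 for A and -1.99 ± 0.20 for G with minP and -2.26 ± 0.24 and -2.60 ± 0.19 with SV40, and its highest was window C of that orientation, at 1.16 ± 0.20 for A with minP. rs2904259 lies 628 bases above rs2013701 and was among the lowest variants, with window R of orientation RC at -1.57 ± 0.14 and -1.52 ± 0.14 with minP over 475 and 538 input reads per tag. Neither variant had a construct past the allelic threshold.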

How the data were processed

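The deposited table held raw read counts per tag, whole numbers, in 4 libraries, per the file headers; the labels describe 36 nt single reads of PCR products, and the sources used here do not say how reads were assigned to tags. Of its columns 0 were left unused. A tag needed at least 10 input reads, and its ratio was log2 of (RNA + 1) over the library total minus log2 of (input + 1) over the library total. Constructs needed 10 tags per allele. Allele names were permuted over tags with 100000 resamples (smallest p 1e-05), two-sided, over the whole table, with Benjamini-Hochberg adjustment at 0.05. Activity has no test, and 2-fold is a size rule. Count models were not used, with 1 library per group. PCR reads are not independent molecules. Scripts used Python 3.11.15, NumPy 2.4.6, pandas 2.3.3 and numba 0.67.0, and the test was checked on simulated data.

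Named were all called constructs, the 5 largest differences on each side with an unadjusted p under 0.05, the 5 highest and lowest elements and variants, the nearest members to rs2013701 and rs7671167, and variants within 50 bases of a named one; exceptions are stated. Members and rules were chosen with earlier results of these data known. Tried as alternatives were a minimum of 1 or 50 input reads, an added count of 0.5, no tags at 0 RNA reads, ranks, summed counts, 20 tags per allele, RNA or input alone, corrections for the tag's first 2 bases and for input depth in 10 classes, and the median tag as reference. The 60 member oligonucleotides of 6 variants with a mark in their names were kept.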

Additional observations from a re-analysis of the deposited data

How the results depend on the processing

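The calls of 3 constructs with minP, 2 with SV40 and 2 in both were found again in number with a minimum of 1 or 50 input reads, an added count of 0.5, 20 tags per allele and both corrections. Without tags at 0 RNA reads SV40 gave 3. Summed counts gave 6 with SV40, and ranks gave 1 in both libraries. RNA counts alone gave 0, 1 and 0, and input counts alone 12, 13 and 9. Shares over the whole series are given for the main setting only. The counts under other settings, here and below, thus cannot be read as particular to the members. Elements at least 2-fold from the average tag numbered 218 with minP and 311 with SV40. They numbered 137 and 203 without tags at 0 RNA reads, 203 with SV40 at 50 input reads, 190 with SV40 in summed counts, 582 and 625 in RNA counts alone and 455 with minP in input counts alone. Of these, 58 were above with SV40 in summed counts, 125 below with SV40 at 50 input reads, and 76 and 121 below without tags at 0 RNA reads, against 117 above with SV40 and 135 and 194 below. Of 20 variant means of named variants (10 variants, each library), 4 moved by more than their SD at 50 input reads, 3 at 1 and 8 in RNA counts alone. Of 30 activities of named elements, 12 moved by about 2 SE or more in summed counts, and at 50 input reads 1 moved, 15 did not and the others had too few tags. Activity from RNA or input alone carries the amount of plasmid, by construction.

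Input counts alone turned the sign of 19 allelic differences of named constructs in a library, while 19 more were counted as the same and 2 as weaker. The SE of the turned differences ran from 0.17 to 0.28, and many of them were smaller than their SE. With minP they were -0.088 for rs1458562, -0.60 for rs2464526, -0.041 for rs2704587, -0.25 for rs34749134, 0.26 for rs56162738, -0.29 and -0.12 for rs72665835 in windows L and R, 0.031 for rs7691363 and 0.80 for rs78681184. With SV40 they were -0.35 for rs2464526, 0.064 for rs2609284, -0.30 for rs2704587, -0.013 for rs2869966 in window C, -0.40 for rs34749134, -0.10 for rs6815703, -0.099 for rs72665835 in window R, 0.020 for rs7691363, 0.34 for rs78681184 and -0.095 for rs9307055. With SV40, rs1458562 turned to -0.35 without tags at 0 RNA reads, and rs56162738 to 0.0066 with a pseudocount of 0.5 and to 1.34 mean ranks with the rank statistic; the cause was not tested.

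In input counts alone, 17 activities of named elements turned. With minP they were -1.86 and -1.60 for A and C of rs10030965, -0.58 for rs11737016, 0.28 for rs2704577 (T), 0.065 for rs2704604, -1.48 and -2.42 for rs6532091 in windows L and R, 0.50 and 0.71 for rs7660385 and -0.89 for rs7697921. With SV40 they were -2.11 and -1.997 for rs10030965, -0.80 for rs11737016, 0.39 and 0.29 for G and T of rs2125409, -1.64 for rs6532091 and -1.04 for rs7697921. The highest elements thus had less input than the average tag, and some of the lowest more. The median SE of allelic differences was largest where input reads per tag were few, and the part of depth in the allelic results was not tested. No paired analysis was possible because each group held 1 library.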
